A study of Mus musculus with 4 samples.

Results

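Cholesterol synthesis, sterol sensing, uptake and efflux were described for 29 genes in immune cells of the mouse liver. The members are a list of gene symbols, drawn up with earlier results of these data known and with no measured value in its rule, and all 29 were found among 32344 genes listed. They comprise 18 enzymes of synthesis (7 of the mevalonate arm and 11 from squalene to sterols), 5 genes of sterol sensing, 3 of transport and storage and 3 of efflux. The cells were CD45+ cells (CD45 marks white blood cells) sorted from digested liver, fixed and counted with the 10x Genomics Fixed RNA assay, in which pairs of probes are hybridised to each mouse transcript and counted by unique molecular identifiers (UMIs). There were 4 libraries, each from a pool of 5 mice, and every group, WT included, had 1 week of tamoxifen. The genotypes were GS(+/D)Hep (1 library), URI(+/D)Hep (1 library) and WT (2 libraries). The series title names GS as glutamine synthetase and describes the URI and GS animals as knockouts. The genotype labels read +/delta, and no Cre driver, strain or age was named in the sources used here. The mutant alleles carry the suffix Hep and the sorted cells are immune cells, so the targeted genes do not check the genotype labels here. The p-values between lineages and between cell states measure how far those differences vary from library to library. Those of the mutant comparisons rest on the spread between the WT libraries. The labels do not say whether the pools were separate experiments, so either spread may be technical.

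Cells make cholesterol from acetyl-CoA through mevalonate and squalene. When membrane sterol is low, the carrier SCAP moves the transcription factor SREBP2 (gene Srebf2) out of the endoplasmic reticulum, its cleaved form raises transcription of the enzymes and of uptake genes, and the INSIG proteins hold SCAP back when sterol is plentiful. When oxysterols accumulate, liver X receptors, among them the product of Nr1h2, raise the exporters ABCA1 and ABCG1, while SOAT1 stores surplus cholesterol as esters. Lymphocytes draw on synthesis when they divide, and macrophages are known for storing and exporting cholesterol.

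RefSeq promoter windows of GRCm38.p6, from 250 bases before each gene's start to 50 after it, were found for 23 of the 29 members (31 windows, since some genes have several starts). Fdps, Fdft1, Sqle, Stard4, Npc1 and Abcg1 had no entry. The letters CCAAT, the core of the binding site of the factor NF-Y, stood on either strand in 20 of the 31 windows (64.5%), against 37.4% of all 32817 windows and 37.6% of the windows of genes tested between lineages. By gene, 19 of the 23 members with a window held the letters. A share by gene was not computed for all genes, and genes with several windows have more chances of a match. This count is therefore not to be set against the shares of windows. The letters CACNCCAC, a loose form of the sterol regulatory element, stood in 3 of 31 windows (9.68%; Acat2, Hmgcs1 and Insig1), against 6.24% of all windows. The 2 letter patterns did not overlap in the sequences printed. A match is a run of letters, not a measured site. The 250 bases upstream of Hmgcs1 (HMG-CoA synthase) and Insig1 are printed because they hold both patterns, and those of Mvk (mevalonate kinase) because its window had 5 CCAAT matches. Capitals mark both patterns as read on the gene's strand, so that ATTGG is CCAAT on the opposite strand.
Hmgcs1 (chr13:119690101-119690350, plus strand): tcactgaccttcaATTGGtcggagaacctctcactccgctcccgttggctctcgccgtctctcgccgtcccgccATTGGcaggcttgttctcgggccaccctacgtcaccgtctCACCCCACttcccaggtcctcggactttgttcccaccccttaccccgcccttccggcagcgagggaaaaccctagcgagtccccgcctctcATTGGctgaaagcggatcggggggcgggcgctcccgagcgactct
Insig1 (chr5:28071162-28071411, plus strand): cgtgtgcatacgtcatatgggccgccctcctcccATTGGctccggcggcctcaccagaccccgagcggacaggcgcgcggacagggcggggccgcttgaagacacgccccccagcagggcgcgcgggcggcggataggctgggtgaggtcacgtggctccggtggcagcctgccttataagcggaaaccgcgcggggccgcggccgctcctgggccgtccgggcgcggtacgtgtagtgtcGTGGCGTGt
Mvk (chr5:114444019-114444268, plus strand): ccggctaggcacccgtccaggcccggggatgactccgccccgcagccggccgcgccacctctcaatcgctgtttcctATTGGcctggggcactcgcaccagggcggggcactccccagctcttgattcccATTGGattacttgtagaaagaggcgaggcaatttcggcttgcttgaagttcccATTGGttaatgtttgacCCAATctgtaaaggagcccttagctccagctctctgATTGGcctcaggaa
The Hmgcs1 window had 4 CCAAT matches, 1 of them past the printed part, and the Insig1 window had 1. Hmgcs1 and Insig1 were both at their highest in monocytes and Mvk in innate-like T cells, as given below. Acat2, whose window held CACNCCAC but not CCAAT, was highest in CD4 T cells. Its mean in monocytes was the lowest apart from that in neutrophils. Whether the letters go with the lineage of highest level was not tested.

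Depth differed between libraries. The totals were 39451266 UMIs in GS(+/D)Hep, 51920505 in URI(+/D)Hep, 37783065 in WT replicate 1 and 24041049 in WT replicate 2. Between 7453 and 9096 barcodes per library had at least 500 UMIs, with median UMIs of 2659 in WT replicate 2 and 3763 to 4973 in the others. No full barcode was shared between libraries, but 5901 of 24835 gel-bead barcodes (the first 16 bases) occurred in at least 2, the samples having been multiplexed. The sharing was not counted for each pair of libraries, so it does not show whether every library was in the same run. Gates on raw marker UMIs placed 62.3% to 67.6% of the kept barcodes into 7 lineages: CD4 T, CD8 T, Zbtb16 T (innate-like T cells such as NKT), NK and ILC1, B, neutrophil and monocyte. No member was used in a gate. The summed CPM of marker genes that were not used in the gates was highest in the lineage each list is for, except that the CD4 T list in WT replicate 1 stood at 3188 CPM in CD4 T and 3219 in Zbtb16 T cells. Cx3cr1, on the monocyte list, had 0 UMIs in every gate. Summed hepatocyte markers stood at 1.69 to 50.5 CPM (counts per 1000000 UMIs) across gates and libraries and summed Kupffer cell markers at 0 to 4.24. The monocyte gate was the smallest, with 67, 130, 93 and 145 barcodes in GS(+/D)Hep, URI(+/D)Hep, WT replicate 1 and WT replicate 2, and its conventional dendritic markers summed to 37.7 to 75.5 CPM, against 7.52 to 9.97 over all kept barcodes. The URI(+/D)Hep neutrophil gate held large barcodes. Without those over 3 times the gate's median UMIs it went from 674 to 618 barcodes and from 3804283 to 2800088 UMIs. The levels given below include these barcodes.

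Levels are given in the same unit, the UMIs of a gene as CPM of that library's lineage. They depend on the probes of each gene, so levels are compared between lineages and never between genes. Tests between lineages used edgeR on UMI sums, with the library as a block, each lineage against the mean of the other 6, an adjusted p under 0.05 and TMM scaling, in which most genes are taken as unchanged. Plain scaling by totals was added after the data were seen, because neutrophils depart from that assumption. The 2 scalings moved the median of all genes by 1.21 log2 units in neutrophils (TMM minus plain), by 0.14 in monocytes, by -0.18 in B cells and by -0.21 to -0.33 in the other 4 lineages. Counts of calls are given under both.

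Neutrophils had the lowest mean CPM of the 7 lineages for 24 of 29 members, among them 16 of the 18 enzymes. Such means are scaled by totals, and under plain scaling 70.1% of all 11080 genes tested were called lower in neutrophils. The share of all genes with their lowest mean in neutrophils was not computed, so this count is not shown to be a trait of the members. Monocytes had the highest for 8 members (6 enzymes), Zbtb16 T cells for 7 (6 enzymes), B cells for 5, CD4 T cells for 4, CD8 T cells for 3 and NK and ILC1 for 2. The extreme lineages were apart by 17.6-fold for Sqle, 16.9-fold for Stard4, 16.6-fold for Dhcr7, 15.8-fold for Lss and 15.5-fold for Abca1, but by 1.35-fold for Nr1h2 and 1.95-fold for Pmvk.

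**Figure D1:**
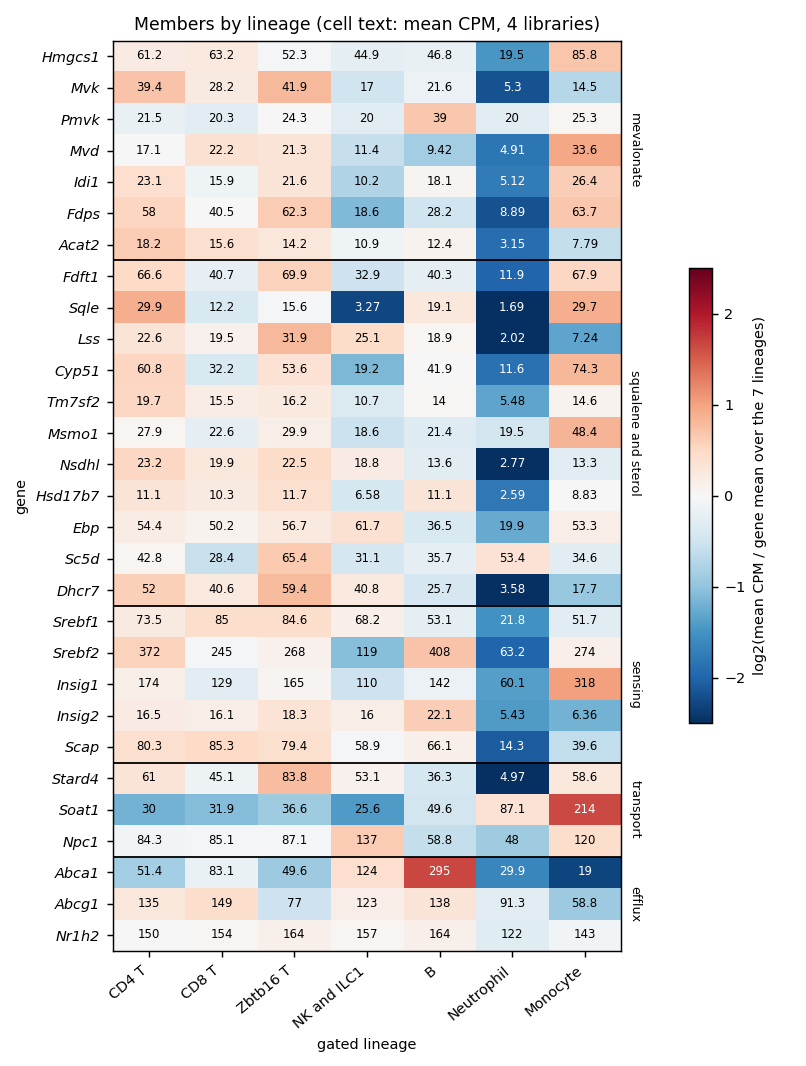
Mean CPM over 4 libraries (text in each cell) of the 29 members (rows, grouped by role) in 7 gated lineages (columns). Colour is log2 of the mean over the gene's mean across the lineages. The neutrophil column is the lowest for 24 genes, a count without a share of all genes to set beside it. Abca1 stands out in B cells and Soat1 in monocytes.

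The shares of members called stood beside large shares of all 11080 genes tested, since lineages differ in most genes. In CD4 T cells 13 members were higher and 5 lower, against 33.6% and 29.4% of all genes. Under plain scaling the members were 21 higher and 2 lower, against 58.3% and 16.4%. Of the 18 enzymes 10 were higher and 1 lower, or 14 and 0 under plain scaling. In Zbtb16 T cells 12 members were higher and 7 lower (all genes 34.2% and 29.3%), and 21 and 3 under plain scaling (56.8% and 16.4%). The enzymes there were 9 higher and 2 lower, or 14 and 0. CD8 T cells had 4 higher and 9 lower (35.5% and 31.2%), and the split turned to 16 higher and 2 lower under plain scaling (57.3% and 18.2%). B cells had 7 higher and 11 lower (38.9% and 30.7%), or 11 and 4 under plain scaling (50.0% and 23.5%).

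Among the other 3 lineages, NK and ILC1 had 6 members higher and 17 lower (30.2% and 26.9% of all genes), or 10 and 12 under plain scaling (46.9% and 17.6%), and 13 of the 18 enzymes were lower, or 9 under plain scaling. The members' share lower exceeded the genes' share under either scaling. Neutrophils had 7 higher and 17 lower (40.1% and 40.4%), or 2 and 25 under plain scaling (18.6% and 70.1%). Monocytes had 14 higher and 6 lower (31.2% and 31.5%), or 13 and 6 under plain scaling (27.0% and 38.5%), so their members were called higher at over the share of all genes under both scalings. Without WT replicate 2, the shallowest library, the members called in either direction numbered 15 to 21 over the 7 lineages, against 13 to 24 with it.

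In the mevalonate arm, monocytes held the highest levels of Hmgcs1, Mvd, Idi1 and Fdps. Mvd, the decarboxylase that yields isopentenyl diphosphate, stood at 31.1 CPM in GS(+/D)Hep, 31.3 in URI(+/D)Hep, 29.9 in WT replicate 1 and 42.2 in WT replicate 2. Every monocyte value lay above every value of the other lineages, where the mean was 14.4 CPM. The log2 difference was 1.53 ± 0.17 (SE; edgeR adjusted p = 4.82e-09). Fdps makes farnesyl diphosphate, from which squalene and prenyl groups derive, and its monocyte values were 79.9, 62.7, 56.0 and 56.2 CPM in the same order of libraries. Those overlapped with the Zbtb16 T values of 75.7, 39.5, 93.6 and 40.2. Against the mean of the other 6 lineages, Fdps was higher in monocytes by 1.26 ± 0.20 (adjusted p = 2.90e-06).

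NK and ILC1 stood at the other end among lymphocytes. Fdps was at 15.7, 12.1, 28.7 and 17.8 CPM in GS(+/D)Hep, URI(+/D)Hep, WT replicate 1 and WT replicate 2, a log2 difference of -1.24 ± 0.19 (adjusted p = 2.01e-06). Of the 7 genes of the arm, 6 were lower in NK and ILC1 and none higher, or 4 lower under plain scaling. Mvk followed another order: its mean was 41.9 CPM in Zbtb16 T cells and 39.4 in CD4 T cells, and 14.5 in monocytes. Pmvk, the kinase after Mvk, was highest in B cells at 39.0 ± 6.10 CPM (SD, n = 4), while Acat2, the cytosolic thiolase that opens the pathway, ranged from 3.15 CPM in neutrophils to 18.2 in CD4 T cells. Idi1, the isomerase of isopentenyl diphosphate, ranged from 5.12 CPM in neutrophils to 26.4 in monocytes.

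The 11 genes from squalene to sterols fell into different orders. Sqle, squalene epoxidase, was at 32.7, 21.2, 39.5 and 26.0 CPM in CD4 T cells of GS(+/D)Hep, URI(+/D)Hep, WT replicate 1 and WT replicate 2. NK and ILC1 had 1.43, 1.06, 4.84 and 5.76 CPM, below every CD8 T value. Sqle was higher in CD4 T cells by 1.37 ± 0.18 (adjusted p = 1.90e-07) and lower in NK and ILC1 by a log2 difference of -2.40 ± 0.31 (adjusted p = 1.75e-07). In monocytes it was higher by 1.86 ± 0.26 (adjusted p = 5.57e-07), but the libraries spread from 16.9 CPM in WT replicate 1 to 47.4 in GS(+/D)Hep, and 3 of 4 were above the mean of the other lineages.

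Cyp51, lanosterol demethylase, had an order close to that of Sqle. Its monocyte values were 84.4, 55.9, 80.7 and 76.1 CPM and its NK and ILC1 values 20.4, 20.6, 12.1 and 23.6, in the order GS(+/D)Hep, URI(+/D)Hep, WT replicate 1 and WT replicate 2. These 2 sets did not overlap, and NK and ILC1 also lay below every CD8 T value. The log2 differences were 1.35 ± 0.16 in monocytes (adjusted p = 2.84e-08) and -1.25 ± 0.16 in NK and ILC1 (adjusted p = 8.67e-08).

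Lss, lanosterol synthase, which acts between Sqle and Cyp51, did not follow them. In Zbtb16 T cells it was at 33.9, 27.6, 33.4 and 32.7 CPM, and in monocytes at 10.4, 5.08, 6.51 and 7.03. NK and ILC1 had the second mean in the order, 25.1 CPM. Lss was higher in Zbtb16 T cells by 1.11 ± 0.12 (adjusted p = 3.52e-09). Dhcr7, the reductase that ends one route to cholesterol, was likewise highest in Zbtb16 T cells (70.2, 48.4, 72.9 and 46.1 CPM), with 1.04 ± 0.10 (adjusted p = 1.31e-09), and its monocyte mean was 17.7 CPM. Across the 24 sums of the 6 lineages other than neutrophils, Pearson's r of log2(CPM + 1) was 0.83 for Sqle with Cyp51 and 0.76 for Lss with Dhcr7, but -0.30 for Sqle with Lss and -0.17 for Cyp51 with Dhcr7. The 24 points share 4 libraries and their depths, and these values are descriptions.

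Neutrophils were low in most of these genes. Lss stood at 1.20, 1.58, 2.09 and 3.21 CPM, Dhcr7 at 2.39, 4.21, 4.18 and 3.53, and Nsdhl, a sterol dehydrogenase, at 2.39, 5.00, 2.09 and 1.60. All 4 neutrophil values of each gene lay below every value of the other lineages. The log2 differences were -1.998 ± 0.23 for Lss, -2.08 ± 0.20 for Dhcr7, -1.34 ± 0.25 for Nsdhl and -1.83 ± 0.37 for Sqle, with adjusted p of at most 6.81e-05, and they were -2.56 to -3.29 under plain scaling.

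Sc5d, a sterol desaturase, was the enzyme with a called higher level in neutrophils under both scalings. Its values there were 56.7, 41.3, 52.6 and 62.9 CPM, above every CD8 T value, and the CD8 T mean of 28.4 was the lowest. Zbtb16 T cells had the highest mean (65.4 CPM), above that of neutrophils, and no neighbouring lineages in the order were without overlap. The log2 difference in neutrophils was 1.69 ± 0.11 (adjusted p = 1.03e-13) and 0.48 under plain scaling. Pmvk and Msmo1 (a methylsterol oxidase) were called higher in neutrophils with TMM scaling, but their differences were -0.27 and -0.38 under plain scaling. In the free RNA of barcodes under 100 UMIs, Lss was at 12.8 to 25.9 CPM and Dhcr7 at 25.9 to 43.1, above all their neutrophil values.

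**Figure D2:**
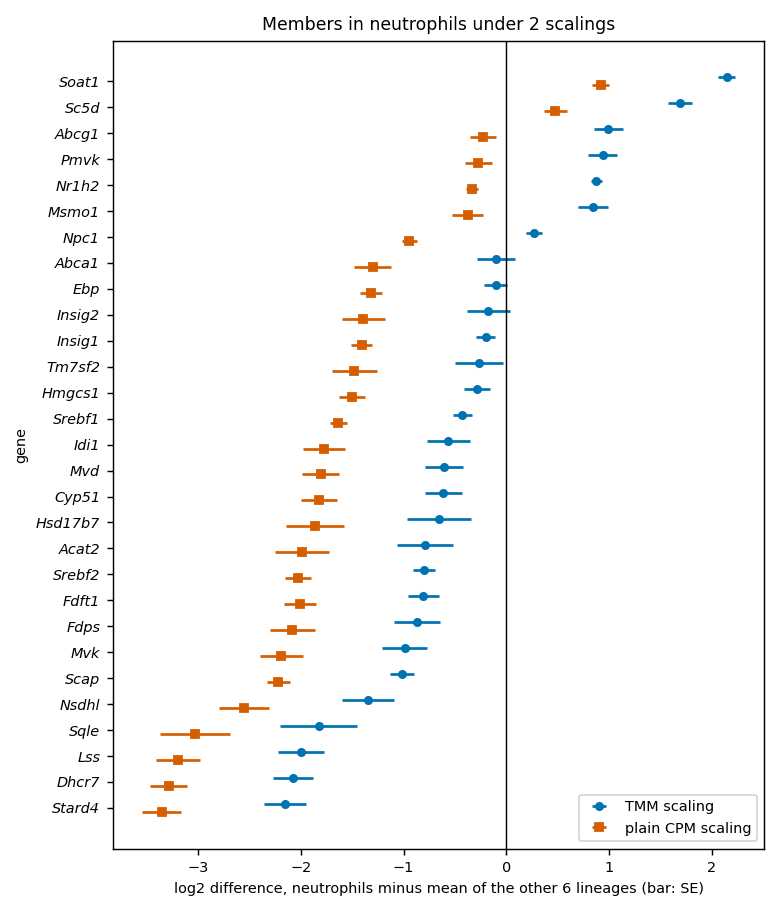
Log2 difference of each member between neutrophils and the mean of the other 6 lineages (points, with SE as bars) under TMM scaling (circles) and plain CPM scaling (squares). Soat1 and Sc5d are right of 0 under both, and Abcg1, Pmvk, Nr1h2, Msmo1 and Npc1 change side.

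Of the other sterol enzymes, Fdft1 (squalene synthase) had means from 11.9 CPM in neutrophils to 69.9 in Zbtb16 T cells. Ebp, a sterol isomerase, was highest in NK and ILC1 (61.7 CPM), where Sqle and Cyp51 were low. Msmo1 was highest in monocytes (48.4 ± 20.98 CPM, SD, n = 4), with 56.3 and 74.2 CPM in GS(+/D)Hep and WT replicate 1 but 28.0 and 35.1 in the other 2 libraries. Tm7sf2 and Hsd17b7, a sterol reductase and a ketoreductase, had highest means of 19.7 CPM (CD4 T) and 11.7 CPM (Zbtb16 T).

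Among the sensing genes, Insig1, which retains SCAP in the endoplasmic reticulum and is itself a target of SREBP2, marked monocytes. Its monocyte values were 322.8 CPM in GS(+/D)Hep, 331.3 in URI(+/D)Hep, 301.9 in WT replicate 1 and 317.3 in WT replicate 2. Elsewhere the highest value was 209.8 CPM, so the groups did not overlap. Insig1 was higher by 1.52 ± 0.08 (adjusted p = 2.63e-15), and higher by 1.38 under plain scaling. Insig2, its paralog, was lower in monocytes by a log2 difference of -1.06 ± 0.30 (adjusted p = 0.00304), at 7.40, 7.62, 10.4 and 0 CPM. Neutrophils had the lowest mean of both genes, 5.43 CPM for Insig2 and 60.1 for Insig1. Over the same 24 sums, which leave out neutrophils, r was -0.65 for Insig1 with Insig2. This r includes the monocyte sums, where Insig2 had too few UMIs to enter the mutant comparison.

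Srebf2 was highest in B cells (435.8, 381.0, 398.4 and 417.1 CPM in GS(+/D)Hep, URI(+/D)Hep, WT replicate 1 and WT replicate 2) and CD4 T cells (379.7, 338.5, 373.8 and 397.4). In NK and ILC1 it was at 127.6, 101.2, 114.8 and 134.1 CPM, below every CD8 T value and above every neutrophil value. The difference in NK and ILC1 was -1.21 ± 0.10 (adjusted p = 2.73e-11), and -0.997 under plain scaling. Across the 24 sums r was 0.83 for Srebf2 with Sqle. Scap was at 12.8, 9.73, 8.35 and 26.3 CPM in neutrophils, below every other value, with -1.02 ± 0.11 (adjusted p = 4.35e-09). Srebf1, whose product acts mostly on fatty acid genes, had means from 21.8 CPM in neutrophils to 85.0 in CD8 T cells.

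Soat1, which esterifies cholesterol for storage, was the member that set the myeloid cells apart. In monocytes it was at 236.9 CPM in GS(+/D)Hep, 184.7 in URI(+/D)Hep, 273.3 in WT replicate 1 and 161.6 in WT replicate 2. In neutrophils it was at 120.1, 82.9, 88.1 and 57.4 CPM. No monocyte value overlapped with any other lineage, whereas the lowest neutrophil value lay within the B cell range of 38.8 to 63.5. The log2 differences were 2.58 ± 0.09 in monocytes (adjusted p = 4.82e-20) and 2.15 ± 0.08 in neutrophils (adjusted p = 9.46e-20), or 2.44 and 0.92 under plain scaling. Soat1 was lower in NK and ILC1 (-1.37 ± 0.10), CD4 T cells (-1.19 ± 0.09) and CD8 T cells (-1.09 ± 0.09), with adjusted p of at most 1.65e-11.

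The 2 transport genes, beside Soat1, went different ways. Stard4, a cytosolic sterol carrier, stood at 4.39, 7.89, 3.76 and 3.85 CPM in neutrophils, and its lowest value in any other lineage was 31.0. The difference was -2.15 ± 0.20 (adjusted p = 1.14e-10), and -3.36 under plain scaling. Its highest mean was 83.8 CPM in Zbtb16 T cells. Npc1, which lets cholesterol leave the lysosome, was highest in NK and ILC1 (128.0, 144.5, 130.3 and 143.9 CPM) and monocytes (97.7, 119.5, 117.1 and 144.0), and these 2 lineages overlapped. Every monocyte value was above every Zbtb16 T value.

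Abca1, the exporter that loads cholesterol onto lipid-poor apolipoproteins, marked B cells. Its B cell values were 232.4 CPM in GS(+/D)Hep, 324.1 in URI(+/D)Hep, 249.2 in WT replicate 1 and 375.3 in WT replicate 2, against 93.0, 105.9, 134.1 and 162.3 in NK and ILC1, the next lineage. The groups did not overlap. The log2 difference for B cells was 2.45 ± 0.11 (adjusted p = 2.53e-17). Monocytes had the lowest mean, with 16.3, 21.2, 10.4 and 28.1 CPM, and a difference of -1.90 ± 0.29 (adjusted p = 1.87e-06). Free RNA held 61.8, 102.9, 72.5 and 151.3 CPM of Abca1, above the values of the same libraries in each lineage other than B cells and NK and ILC1, and its part in the low levels was not tested.

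Abcg1, which exports cholesterol to mature lipoproteins, varied by 2.53-fold between lineages, from 58.8 CPM in monocytes to 148.8 in CD8 T cells, and 3 of 7 contrasts were called. Over the 24 sums r was 0.73 for Abca1 with Abcg1. Nr1h2, the oxysterol receptor, had means of 122.2 to 164.4 CPM and no pair of neighbouring lineages without overlap. Its call of higher in neutrophils turned to -0.34 under plain scaling.

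**Figure D3:**
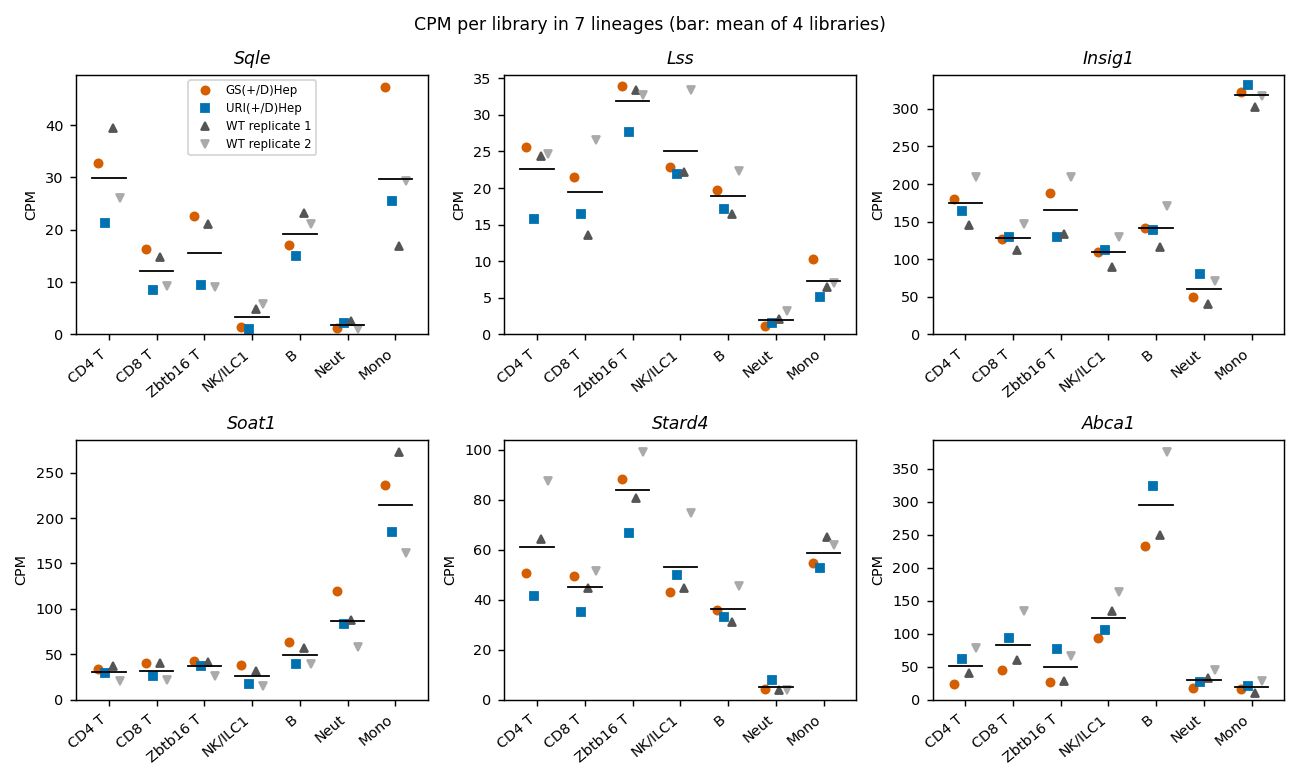
CPM of 6 members in 7 lineages, 1 symbol per library, with the mean of 4 libraries as a bar; each panel has its own axis from 0. Sqle and Lss differ in NK and ILC1 and in monocytes, Insig1 and Soat1 are highest in monocytes, Stard4 is lowest in neutrophils and Abca1 is highest in B cells.

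Other genes of the pathways were read from 3 lists: 14 of fatty acid synthesis, 28 of sterol transport and sensing, and 18 of the isoprenoid branch and oxysterols. In monocytes 12 of 27 tested transport and sensing genes were higher and 9 lower, under either scaling, beside 31.2% and 31.5% of all genes (27.0% and 38.5% under plain scaling), so the count lower was near the share of all genes. Msr1 and Lrp1, which take up modified and remnant lipoproteins, were at 223.2 ± 73.5 and 1088 ± 174 CPM (SD, n = 4) in monocytes. Their means over the other lineages were 1.66 and 10.1 CPM. The edgeR differences were 9.34 ± 0.16 and 8.67 ± 0.13 log2 units (adjusted p = 4.24e-27 and 5.74e-28). They average the log2 levels of the other lineages, so they are not the log2 ratios of these means. In neutrophils 21 of the 27 were higher and 6 lower (all genes 40.1% and 40.4%), but 10 and 13 under plain scaling (18.6% and 70.1%). Of 11 tested fatty acid genes 3 were higher there and 6 lower, or 2 and 9 under plain scaling, beside the same shares. In B cells Scd1, which desaturates stearoyl-CoA, was at 819.1 ± 20.8 CPM against a mean of 7.91 elsewhere, a difference of 6.75 ± 0.14 (adjusted p = 1.64e-25). Scarb1, the HDL receptor, was lower in NK and ILC1 by a difference of -4.47 ± 0.25 (adjusted p = 6.52e-15).

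In dividing lymphocytes 4 enzymes and Stard4 were called higher and the 3 efflux genes lower, counts that were near the shares of all genes. Barcodes of the 5 lymphoid gates with UMIs of both Mki67 and Top2a numbered 34 in GS(+/D)Hep, 33 in URI(+/D)Hep and 33 in WT replicate 1, while WT replicate 2 had 4 and was left out by the minimum of 20. Compared with barcodes without either gene, 5 of 29 members were higher (15.2% of 10928 genes) and 3 lower (14.3%). Among the 18 enzymes 4 were higher and none lower, and the median log2 difference was 0.61, against -0.07 over all genes. The cycling barcodes had median UMIs of 10455 to 14192, against 3764 to 5168 for the others, and 5.88% to 9.09% were B cells, against 25.6% to 35.0%.

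Stard4 rose from 52.5, 40.4 and 47.4 CPM in non-cycling barcodes of GS(+/D)Hep, URI(+/D)Hep and WT replicate 1 to 130.5, 100.5 and 100.4 in cycling ones. The states did not overlap, and the difference was 1.29 ± 0.17 (adjusted p = 0.000103). Fdft1 rose by 1.00 ± 0.20 (adjusted p = 0.00219), from 45.3, 40.4 and 41.5 CPM to 87.0, 67.7 and 93.0. Ebp rose by 0.86 ± 0.20 (adjusted p = 0.00586), again in 3 of 3 libraries.

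Fdps rose by 1.13 ± 0.24 (adjusted p = 0.00361), but unevenly. It went from 48.0 to 148.4 CPM in GS(+/D)Hep and from 49.7 to 102.8 in WT replicate 1, but from 32.9 to 41.0 in URI(+/D)Hep. Without GS(+/D)Hep its difference was 0.77 with an adjusted p of 0.0711. Cyp51 was near the threshold (0.62 ± 0.21, adjusted p = 0.0467), and was called in none of the 3 fits that left out a library. Sqle, at 0.80 ± 0.35, had an adjusted p of 0.103.

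Abca1 fell from 84.0, 154.2 and 113.2 CPM to 20.5, 32.8 and 19.6 (8, 16 and 8 UMIs), a difference of -2.23 ± 0.21 (adjusted p = 6.70e-06). Abcg1 fell from 104.8, 134.7 and 105.2 CPM to 35.8, 45.1 and 19.6, a difference of -1.74 ± 0.21 (adjusted p = 5.71e-05). For both exporters the states did not overlap. Nr1h2 fell by 0.44 on the log2 scale (SE 0.15, adjusted p = 0.0444), and the call was lost without GS(+/D)Hep (adjusted p = 0.151) and without URI(+/D)Hep (adjusted p = 0.253).

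Since B cells carry much Abca1 and were fewer among cycling barcodes, the split was repeated on the 3 T gates after the data were seen. There 3 members were higher and 3 lower, 6 of 29 in all, which is below the 27.1% of 10354 genes called in either direction. The makeup of the T gates still differed: in URI(+/D)Hep 57.7% of cycling T barcodes were Zbtb16 T and 11.5% CD8 T, against 23.7% and 37.6% of the others. Its part in these differences was not tested. Abca1 differed by -1.65 ± 0.31 (adjusted p = 0.00123), Abcg1 by -1.55 ± 0.22 (adjusted p = 0.000105), Stard4 by 1.21 ± 0.18 (adjusted p = 0.000172) and Fdft1 by 0.78 ± 0.20 (adjusted p = 0.00946). Fdps, at 0.77 ± 0.27, had an adjusted p of 0.0500303. From the other lists, 4 of 13 fatty acid genes tested were higher in cycling lymphocytes of all 5 gates and 1 lower, beside 15.2% and 14.3% of all genes. Of 25 transport and sensing genes 2 (Tmem97 and Scarb1) were higher and 5 lower, around those shares.

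Within CD8 T cells, barcodes with at least 3 UMIs of Ccl5, a chemokine of effector and memory cells, were compared with those without it in all 4 libraries. No member was higher (14.8% of 9463 genes) and 5 of 29 were lower (11.0%). Srebf2 was at 272.7, 274.9, 279.6 and 280.4 CPM without Ccl5 and at 201.9, 187.3, 195.4 and 185.8 with it, in the order GS(+/D)Hep, URI(+/D)Hep, WT replicate 1 and WT replicate 2. The libraries lay close together and the states did not overlap. The difference was -0.47 ± 0.06 (adjusted p = 1.11e-05). Abca1 was lower by a difference of -0.85 ± 0.12 (adjusted p = 3.44e-05), from 54.8, 110.4, 67.0 and 184.0 CPM to 32.1, 56.4, 46.4 and 55.3. It was lower within each of the 4 libraries, though the states overlapped between libraries.

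Abcg1 (-0.31 ± 0.08, adjusted p = 0.00512), Hmgcs1 (-0.35 ± 0.10, adjusted p = 0.0150) and Mvd (-0.53 ± 0.18, adjusted p = 0.0318) were also lower in Ccl5-high CD8 T cells, each in 4 of 4 libraries. The call of Hmgcs1 was lost without GS(+/D)Hep (adjusted p = 0.0596) and without URI(+/D)Hep (0.0884). That of Mvd was lost without GS(+/D)Hep (adjusted p = 0.0829), URI(+/D)Hep (0.173) or WT replicate 2 (0.0583). Median UMIs were 4126 to 7318 in the Ccl5-high barcodes and 3553 to 6140 in the others.

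**Figure D4:**
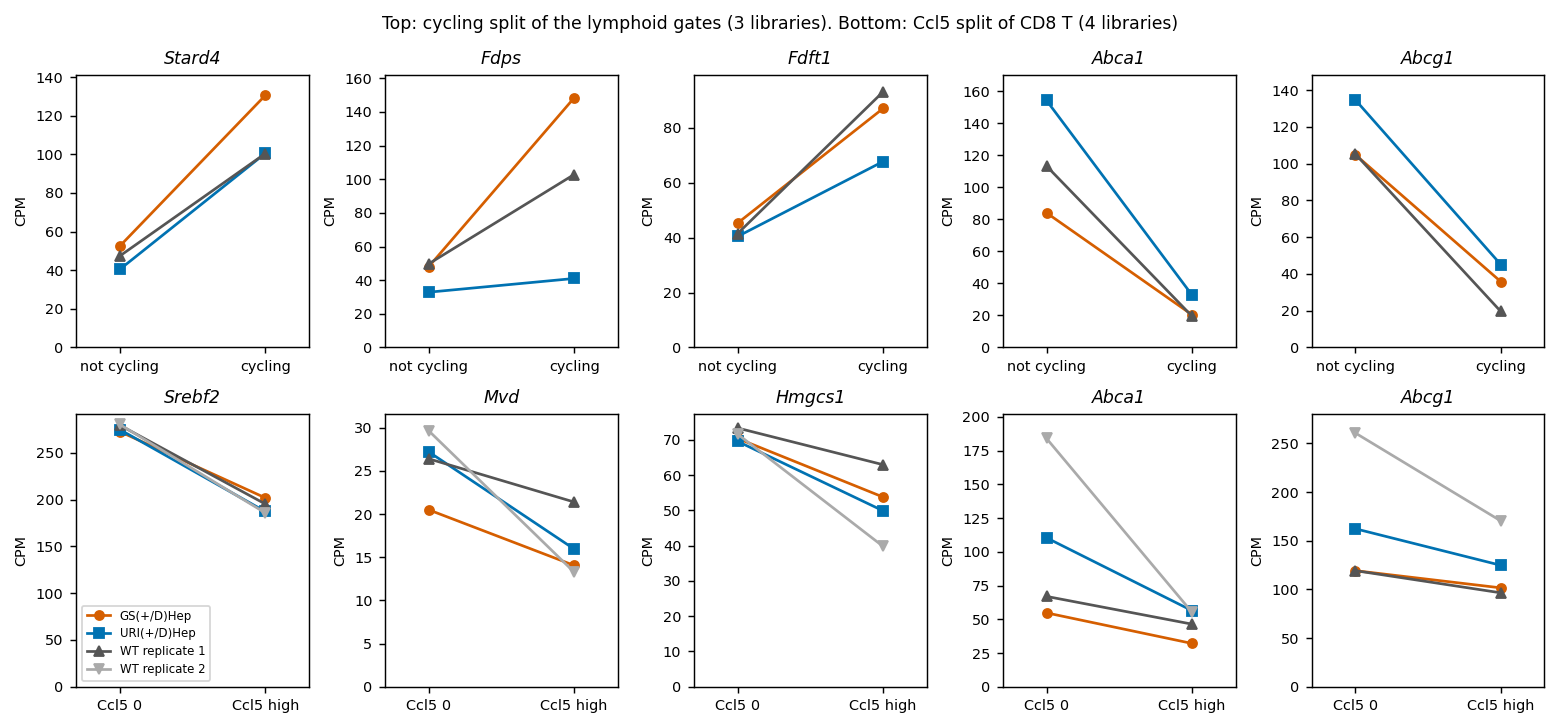
CPM of named members in 2 splits, 1 line per library: non-cycling and cycling lymphoid barcodes (top, 3 libraries) and CD8 T barcodes without and with high Ccl5 (bottom, 4 libraries); each panel has its own axis from 0. Stard4, Fdps and Fdft1 rise and Abca1 and Abcg1 fall in each of the 3 libraries at the top, and the 5 genes at the bottom fall in all 4.

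Monocytes with at least 2 UMIs of Ly6c2, a marker of classical monocytes, were set against those without it. In 2 libraries (URI(+/D)Hep and WT replicate 2) both states reached 20 barcodes, and none of 18 members tested was called by edgeR in either direction, against 0.336% of 6253 genes higher and 0.912% lower. By unadjusted p 4 of the 18 members were under 0.05, beside 12.5% of all genes, and DESeq2 called none. With a minimum of 10 barcodes, an alternative added after the data were seen, all 4 libraries entered, 8.53% of 4864 genes were called, and 1 of 14 members, Abcg1, was lower in Ly6c2-high barcodes. Abcg1 was at 68.5, 47.7, 33.3 and 45.8 CPM in the Ly6c2-high state and 75.9, 107.4, 184.7 and 161.2 in the other. The states did not overlap, and the difference was -1.43 ± 0.33 (adjusted p = 0.00929).

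The mutant libraries were compared with the 2 WT libraries, which both comparisons share. Each mutant group is 1 library, so its spread is assumed to be that between the WT libraries, with 1 residual degree of freedom before edgeR pools across genes. No member was called in any lineage, in 198 member tests for GS(+/D)Hep and 198 for URI(+/D)Hep. Over the 7 lineages 0.0290% of gene tests were called for GS(+/D)Hep and 0.132% for URI(+/D)Hep, and over all kept barcodes 0.00% and 0.0391% of genes. At an unadjusted p under 0.05 there were 3 member tests for each mutant (0.911% and 1.29% of gene tests), and DESeq2 called 0 members. The WT libraries themselves were over 1.5-fold apart in 52 of 137 member levels of at least 20 CPM, against 26.2% of the levels of all genes.

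By size alone, 4 of 137 member levels in GS(+/D)Hep lay over 1.5-fold beyond both WT libraries (1.47% of all genes' levels) and 3 of 137 in URI(+/D)Hep (1.54%). The 4 in GS(+/D)Hep were Abca1 in CD4 T cells and neutrophils and Sqle and Pmvk in monocytes. Abca1 in CD4 T cells was at 23.9 CPM in GS(+/D)Hep, 62.0 in URI(+/D)Hep and 41.0 and 78.8 in WT replicates 1 and 2, a difference of -1.32 ± 0.48 for GS(+/D)Hep (edgeR adjusted p = 1.00). In neutrophils it was at 17.2 CPM against 32.2 and 44.3 in WT, with -1.06 ± 0.43 (adjusted p = 1.00).

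Abca1 in GS(+/D)Hep lay below both WT libraries in 6 of 7 lineages, monocytes being the other, but only in the 2 named by over 1.5-fold. The share of all genes below both WT libraries in 6 lineages was not computed. The lineages come from the same pool of mice, so they do not repeat the comparison. Without WT replicate 2 the CD4 T difference was -0.77. Free RNA of Abca1 was also lowest in GS(+/D)Hep (61.8 CPM, against 102.9, 72.5 and 151.3 in URI(+/D)Hep, WT replicate 1 and WT replicate 2). The 5 B cell markers in the CD4 T gate summed to 20.8 CPM in GS(+/D)Hep, 27.6 in URI(+/D)Hep and 33.5 and 53.4 in WT. Their part in the Abca1 values was not tested.

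Srebf1 was the member below both WT libraries in all 7 lineages in GS(+/D)Hep, as were 0.682% of 7769 genes. In URI(+/D)Hep no member was, against 0.386% of genes. The Srebf1 gaps were small: 69.2 CPM in CD4 T cells against 75.6 and 73.3, and 70.9 in Zbtb16 T cells against 85.1 and 98.7. The latter difference was -0.43 ± 0.38 (adjusted p = 1.00).

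In GS(+/D)Hep monocytes Sqle was at 47.4 CPM (32 UMIs) against 16.9 and 29.3 in WT and Pmvk at 16.3 (11 UMIs) against 27.3 and 36.3. In URI(+/D)Hep the levels past 1.5-fold were lower. Cyp51 in Zbtb16 T cells was at 29.5 CPM against 61.1 and 59.0 in WT and 64.9 in GS(+/D)Hep, a difference of -1.07 ± 0.41 (edgeR adjusted p = 1.00). Stard4 in CD4 T cells was at 41.4 CPM against 64.4 and 87.7, with -0.87 ± 0.40 (edgeR adjusted p = 1.00). Lss in CD4 T cells, at 15.8 CPM against 24.4 and 24.7 in WT, was the other, and is named here after its value was seen.

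**Figure D5:**
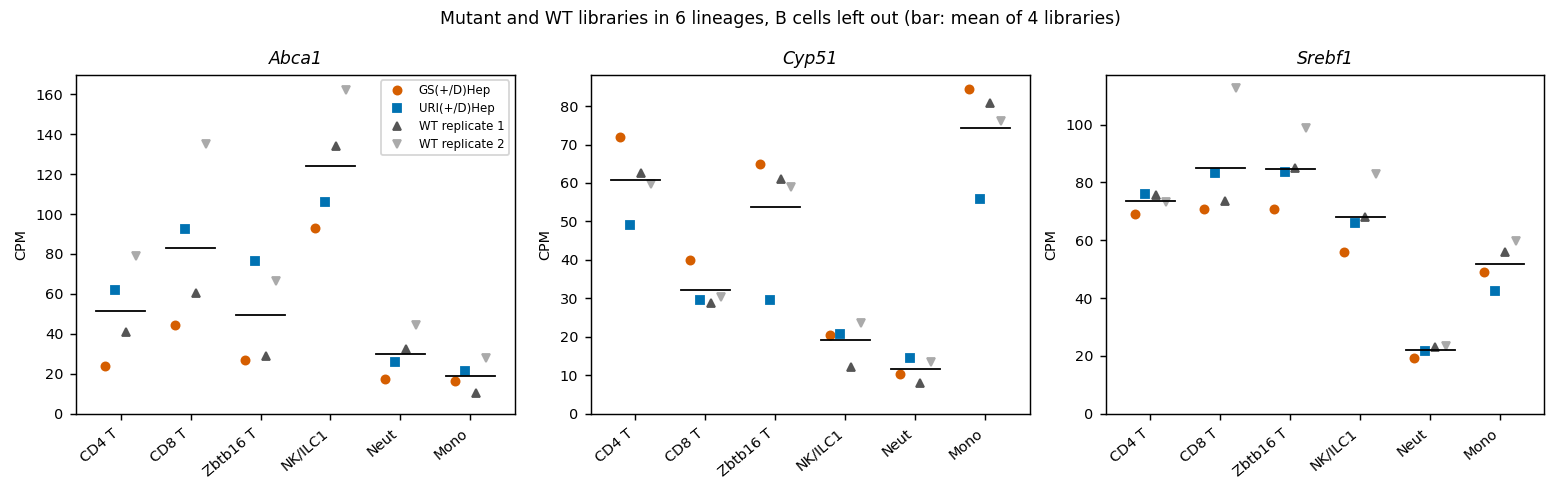
CPM of Abca1, Cyp51 and Srebf1 in 6 lineages (B cells left out for scale), 1 symbol per library, with the mean of 4 libraries as a bar; each panel has its own axis from 0. Abca1 is lowest in GS(+/D)Hep in 5 of the 6 lineages shown, Cyp51 is low in URI(+/D)Hep in Zbtb16 T cells, and the 2 WT libraries are often apart by as much as a mutant from either.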

How the data were processed

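Liver CD45+ cells of 4 libraries were profiled with the 10x Genomics Fixed RNA assay. The deposited UMI counts per gene and barcode were made by the authors with Cell Ranger 8.0.0, per the submitters' processing notes, which name mm10. They are unfiltered raw counts, and reads are UMI-collapsed probe counts, so isoforms and probe efficiency cannot be separated. Probe entries marked as deprecated (59) held 0.0650% of the UMIs and were left out of the tests.

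Barcodes with at least 500 UMIs were kept and gated on raw UMIs of Cd3e, Cd4, Cd8a, Zbtb16, Ncr1, Cd79a, Csf3r and Csf1r. Positive gates needed 1 UMI, or 2 for Cd79a, Csf3r and Csf1r. No doublet caller was run, and the gates left out barcodes with markers of 2 lineages only in part. Neutrophil barcodes needed more Csf3r than Csf1r UMIs and monocyte barcodes the reverse, so the other marker could be present. Zbtb16 T barcodes could hold Cd4. A lineage needed 50 barcodes and a state 20 in each library. UMIs were summed per library and lineage or state and tested over all genes with edgeR 4.0.16 (R 4.3.3; TMM, filterByExpr, quasi-likelihood, Benjamini-Hochberg at 0.05). Library was a block between lineages and between states. The SE given with an edgeR difference is the size of that difference divided by the square root of its F statistic. DESeq2 1.42.0 was an alternative. The scripts were tested on simulated counts of a set spread. There the fit of GS(+/D)Hep against WT in CD8 T cells missed part of the changes of 1 log2 unit. The absence of a call in a mutant comparison therefore does not show that a member was unchanged. Intervals cover the 4 libraries only, and precision is limited by depths of 24041049 to 51920505 UMIs.

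The members and lists were chosen with earlier results of these data known. Folds and tests are given for called members with a log2 difference of at least 1 and at least 10 CPM in some lineage, up to 6 per direction, for up to 6 called members per direction in each state, and for up to 3 members per lineage and mutant, of the smallest unadjusted p beyond both WT libraries at 20 CPM or more. Up to 3 called genes per lineage are named from the other lists. Gene positions follow GENCODE M21, and promoter sequences are RefSeq's for GRCm38.p6.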

Additional observations from a re-analysis of the deposited data

How the results depend on the processing

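Of 626 alternative values of 46 named tests, 595 kept their direction and side of the threshold, 30 kept the direction but lost the call, 1 moved, and none reversed. All lost calls were in the cycling and Ccl5 comparisons. Some settings changed few or no barcodes, so their values could hardly differ. The filter on genes and mitochondrial percent only took CD4 T cells of WT replicate 1 from 885 to 884 barcodes, yet gave 46 of the kept values. With 1 UMI per marker the T and NK gates were unchanged, and with 2 the B, neutrophil and monocyte gates. Of 155 alternative counts of called members, 144 stayed within 1.5 times. Fitted without library as a block (no replicate block), the counts of called members were 12 for Zbtb16 T cells, 10 for B cells and 1 for the Ccl5 comparison. Leaving out 1 library gave 5 to 7 called members for cycling and 3 to 5 for Ccl5, for which DESeq2 called 3. The monocyte comparison, on 2 libraries, called 1 member each with RLE scaling and without the low-count filter. It called 2 with 1 UMI per marker and 1 with 10 barcodes per state, settings under which 4 libraries entered. With 2 libraries, none could be left out. Leaving out a WT library leaves the mutant comparisons without residual degrees of freedom, so these gave values only: Abca1 in CD4 T cells was -0.77 without WT replicate 2. No paired analysis was possible because the mutant groups have 1 library each. The pools hold 5 mice, so animals cannot be told apart, and genotype cannot be told apart from library in the mutants.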
